A study of Mus musculus with 8 samples.

Results

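The genes described here are those of major histocompatibility complex (MHC) class I antigen presentation, together with Ubd. They are H2-K1, H2-D1, B2m, Tap1, Tap2, Tapbp, Psmb8, Psmb9, Nlrc5 and Ubd, 10 of the 14518 genes tested on these arrays. Ubd was chosen from the comparison itself, because an earlier analysis of the same arrays had it among the largest falls, and the other 9 were chosen for their function with earlier results known. Their differences between groups are therefore given as a description, without a p-value. Adjusted p-values are given for genes of lists drawn up by function, also with earlier results of these data known. All 10 genes had a probe that passed the filter on dim probes. They were read by 12 probes, of which 11 were well above background on all 6 replicate arrays.

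Class I molecules carry peptides from inside the cell to its surface, where cytotoxic T cells inspect them. The proteasome cuts proteins into peptides, and the inducible subunits Psmb8 and Psmb9 replace constitutive subunits and shift which peptides are made. The transporter built from Tap1 and Tap2 moves peptides into the endoplasmic reticulum, where Tapbp, also called tapasin, holds the transporter next to a class I heavy chain paired with B2m. Nlrc5 is an activator of class I promoters. Ubd encodes FAT10, a ubiquitin-like protein that marks other proteins for breakdown by the proteasome, and interferon gamma and tumor necrosis factor are known to induce it.

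The cells were mouse cells labelled C57BL/6 and iRUNX1, which carry a Runx1 gene that doxycycline switches on (a Tet-on system). Runx1 is a transcription factor needed for blood cells to arise from hemogenic endothelium. Per the labels' protocols, embryoid bodies were grown for 3.25 days, Flk-1+ cells were sorted and cultured for 2 days, and the induced group (DOX+, genotype label Runx1 expression) received doxycycline overnight at 0.3 µl/ml, the unit the labels give. The uninduced group (DOX-, genotype label control) carries the same inducible gene and received none. There were 3 replicates per group, and 1 further array per group is labelled a technical repeat. The endogenous Runx1 alleles and the number of clones are not stated in the labels. Cells without the inducible gene that received doxycycline were not analysed here, so the drug and the induced gene cannot be told apart. The labels do not say whether replicates were separate cultures, and p-values may then measure technical spread only.

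The arrays were of 1 colour, and the 75th percentile of the processed signal lay between 338 and 699 in the uninduced replicates and between 543 and 973 with induction. The share of spots well above background ran from 55.6% to 70.4%, and 0 spots were saturated. The Runx1 probe that passed the filter (A_55_P2183438) read -4.71, -4.72 and -4.28 in uninduced replicates 1, 2 and 3 and -6.14, -5.71 and -4.95 in the induced ones, as log2 signal relative to the array's 75th percentile. It was lower in the induced library of every pair. It was well above background on 3 uninduced but only 2 induced arrays, so it passed the filter through the uninduced group. The other Runx1 probe (A_51_P206585) was well above background on 0 arrays of either group. No source used here says if the inducible gene holds the target sequence of the kept probe, so that probe is no check of the group labels. Every level below is on that log2 scale, and a difference is induced minus uninduced. Probes bind their targets unequally, so levels are compared between arrays and never between genes. The technical repeat of the induced group stood apart: it lay outside the range of the 3 induced replicates for 73.0% of 18939 named probes, against 40.6% for the repeat of the uninduced group. Both repeats are given beside the replicates and enter no mean. Arrays were put in groups by the sample each scanner file belongs to. Of the 8 columns of the authors' deposited log2 table, 6 track another array than the one they are named for, and no source used here says whether the table or the scanner files carry the wrong names. With the table's columns as named, Ubd differed by 0.20 in place of falling, so every group difference below rests on the scanner files' names.

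The promoters are shown first, because Ubd and the classical heavy chains share a kind of letter match there while their signals moved differently. RefSeq's table for GRCm38.p6 held a promoter for 8 of the 10 genes, all but Tap2 and Nlrc5. The 250 bases before each start were searched on both strands. Capitals mark matches to the RUNX motif TGTGGT, the interferon response motif (GAAANNGAA or GAANNGAAA), the STAT motif TTCNNNGAA, the kappa-B consensus and the core of the cyclic AMP response element, TGACG. In each heavy chain window 2 overlapping kappa-B matches form 1 run of capitals. The windows are chr17:37193642-37193891 (plus strand) for Ubd, chr17:34000348-34000597 (minus strand) for H2-K1, chr17:35262844-35263093 (plus strand) for H2-D1 and chr2:122147437-122147686 (plus strand) for B2m, each printed in the direction of its gene.
Ubd: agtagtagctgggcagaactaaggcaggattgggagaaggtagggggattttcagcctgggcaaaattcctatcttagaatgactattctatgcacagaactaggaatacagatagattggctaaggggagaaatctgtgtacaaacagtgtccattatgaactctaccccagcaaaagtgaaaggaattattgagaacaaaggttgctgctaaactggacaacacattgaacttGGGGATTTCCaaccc
H2-K1: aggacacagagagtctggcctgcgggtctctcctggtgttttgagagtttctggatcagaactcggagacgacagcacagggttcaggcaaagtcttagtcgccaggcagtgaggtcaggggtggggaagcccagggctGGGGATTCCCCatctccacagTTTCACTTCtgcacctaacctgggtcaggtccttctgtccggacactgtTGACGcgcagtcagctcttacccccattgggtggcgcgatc
H2-D1: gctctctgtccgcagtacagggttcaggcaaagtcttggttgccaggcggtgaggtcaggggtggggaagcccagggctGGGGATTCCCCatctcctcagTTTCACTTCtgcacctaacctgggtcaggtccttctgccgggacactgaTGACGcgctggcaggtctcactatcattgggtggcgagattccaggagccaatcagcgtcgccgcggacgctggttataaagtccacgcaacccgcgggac
B2m: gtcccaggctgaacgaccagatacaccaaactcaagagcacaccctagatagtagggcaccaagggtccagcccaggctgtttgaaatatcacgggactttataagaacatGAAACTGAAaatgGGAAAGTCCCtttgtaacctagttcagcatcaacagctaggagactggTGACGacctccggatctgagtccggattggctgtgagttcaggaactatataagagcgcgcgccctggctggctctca

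The kappa-B consensus, the binding pattern of the NF-kB factors, was found in these 4 of the 8 promoters and in 7.25% of all 32851 promoter windows of the same length. In Ubd it lay 15 to 6 bases before the start, in H2-K1 it began 111 bases, in H2-D1 171 bases and in B2m 126 bases before it. The interferon response motif was found in H2-K1, H2-D1 and B2m, close to the kappa-B match in each, and in 12.5% of all windows. The Ubd window held no match to it. H2-K1 and H2-D1 shared an unbroken stretch of 47 bases around the kappa-B match. The core TGACG was found in 5 of the 8 promoters (H2-K1, H2-D1, B2m, Psmb9 and Tap1) and in 17.8% of all windows.

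Psmb9 and Tap1 start back to back, and the 225 bases between their starts, chr17:34187331-34187555, are given on the plus strand, which is the direction of Tap1. They are shown because the pair shares this stretch while Psmb9 was higher in every induced replicate and Tap1 was not.
Psmb9-Tap1: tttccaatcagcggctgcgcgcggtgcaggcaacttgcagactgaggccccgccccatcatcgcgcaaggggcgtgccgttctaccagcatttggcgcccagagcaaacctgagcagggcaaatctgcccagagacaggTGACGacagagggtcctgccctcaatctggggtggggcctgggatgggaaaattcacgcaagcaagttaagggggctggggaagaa
It held 1 match, TGACG, and none to the other motifs. Psmb8 had 1 match to the STAT motif 97 to 89 bases before its start (7.02% of all windows), and Tapbp 1 match to the RUNX motif 92 to 87 bases before its start (found in 4614 of all windows). Tapbp was the only one of the 8 with the RUNX letters in this window, a share near that of all windows, so nothing is read from it. These are letter matches in a fixed window, and no binding was measured here.

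Ubd was far lower in the induced cells, H2-K1, H2-D1 and B2m differed by less than 1 SE, and the inducible proteasome subunits and tapasin were higher in every induced replicate than in any uninduced one. The fold ranged from 10.6-fold lower for Ubd to 2.21-fold higher for Psmb8. The other 9 genes had a median difference of 0.29, against 0.09 over all 14518 genes, and 0.24 with Ubd included. The 0.29 is the value of an Nlrc5 probe that passed the filter through the induced arrays alone. With only probes well above background on all 6 arrays the median was 0.20, or 0.17 with Ubd, against 0.08 over all genes. Of the 10 genes, 4 were higher in all 3 same-numbered pairs (H2-D1, Tapbp, Psmb8 and Psmb9) and 1 was lower in all 3 (Ubd). Such agreement is common on these arrays. The groups did not overlap for 28.3% of all genes, which by itself sets all 3 pairs in 1 direction. The full share of genes with such pairs was not counted, so nothing is read from this count.

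**Figure D1:**
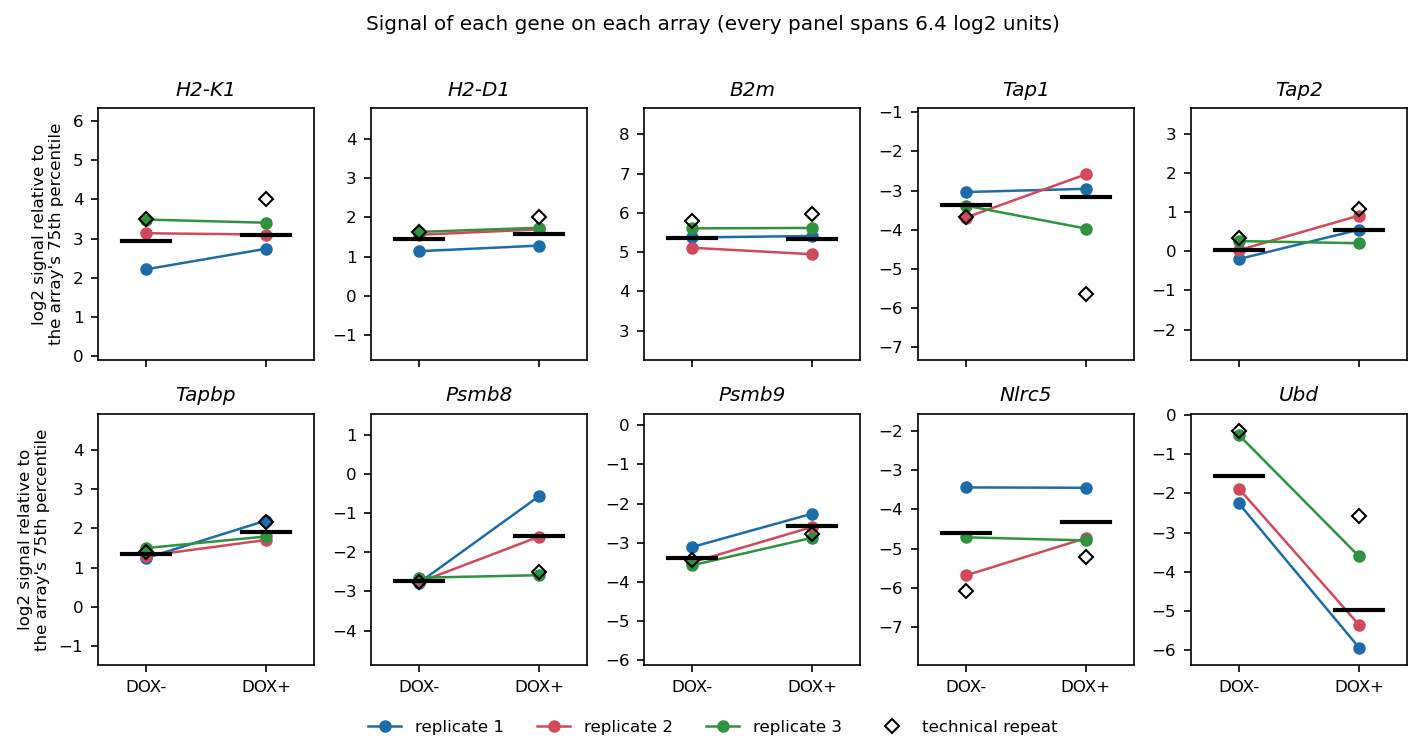
Log2 signal relative to the array's 75th percentile for the 10 genes, without (DOX-) and with (DOX+) doxycycline. Circles joined by a line are the replicates of 1 number, black bars are the means of 3, and open diamonds are the technical repeats; each panel spans the same number of log2 units but is centred on its own gene. Ubd drops in all 3 pairs, from a mean of -1.55 to -4.96, while H2-K1, H2-D1 and B2m run nearly flat and Psmb8 fans out after induction.

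The heavy chains bind the peptide and display it. H2-K1 (probe A_51_P198434, printed on the array in 10 spots) read 2.22, 3.14 and 3.49 in uninduced replicates 1, 2 and 3 and 2.74, 3.10 and 3.41 in the induced ones. The groups overlapped, uninduced replicate 1 was the lowest of the 6, and the means were 2.95 ± 0.66 and 3.08 ± 0.33 (SD, n = 3). The difference was 0.14 (SE 0.37), and the pairs differed by 0.52, -0.03 and -0.08. Its other probe, A_55_P2049647, differed by 0.06 (SE 0.27). The 10 spots differed from each other by far less than the replicates did, with a median SD within an array of 0.0615.

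H2-D1 (A_65_P19395) read 1.14, 1.55 and 1.63 without and 1.28, 1.69 and 1.73 with doxycycline. The groups overlapped, yet each induced replicate stood above the uninduced one of its number, by 0.14, 0.14 and 0.11. The means were 1.44 ± 0.27 and 1.57 ± 0.25 (SD, n = 3), a difference of 0.13 (SE 0.23). Class I heavy chain genes are nearly identical copies of each other, so a probe for one may also take signal from another, and the assignment of these values to H2-K1 or H2-D1 is uncertain.

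B2m, the invariant light chain without which heavy chains do not reach the surface, read 5.38, 5.11 and 5.61 in uninduced and 5.41, 4.95 and 5.62 in induced replicates (A_51_P129012). Replicate 2 was the lowest and replicate 3 the highest in both groups, and the order of the numbers was kept. The means were 5.36 ± 0.25 and 5.33 ± 0.34 (SD, n = 3), and the difference of -0.04 (SE 0.25) was smaller than the spread within either group. The pairs differed by 0.04, -0.16 and 0.01.

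Of the transporter genes, Tap1 (A_51_P100327, also 10 spots) read -3.04, -3.69 and -3.38 without and -2.96, -2.59 and -3.97 with doxycycline. The pairs went both ways, by 0.08, 1.10 and -0.58, and the mean difference was 0.20 (SE 0.39). Its spots spread by a median SD of 0.153 within an array, less than the disagreement between the pairs. The induced technical repeat read -5.63, below all 3 induced replicates. With the normexp background correction the difference was -0.13, so no direction is given for Tap1.

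Tap2, the other chain of the transporter, read -0.20, 0.03 and 0.26 in uninduced and 0.55, 0.91 and 0.20 in induced replicates (A_55_P2017645). Induced replicates 1 and 2 stood above every uninduced one, and induced replicate 3 lay within the uninduced range. The pairs differed by 0.75, 0.88 and -0.05, and the means, 0.03 ± 0.23 and 0.55 ± 0.35 (SD, n = 3), by 0.52 (SE 0.24). Replicates 1 and 2 lie in the first row of the slide by their array codes, and replicate 3 in the second. Within the first row Tap2 differed by 0.81, and array position and replicate number cannot be told apart here.

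Tapbp, the tapasin gene, read 1.24, 1.30 and 1.50 without and 2.20, 1.71 and 1.80 with doxycycline (A_55_P2149763). The groups did not overlap, and the pairs differed by 0.96, 0.41 and 0.30. The means were 1.35 ± 0.14 and 1.90 ± 0.26 (SD, n = 3), a difference of 0.55 (SE 0.20), and the technical repeats differed by 0.77.

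Psmb8, the inducible subunit also called LMP7, read -2.78, -2.77 and -2.65 in uninduced replicates and -0.57, -1.60 and -2.59 in induced ones (A_51_P345367). The uninduced values lay within a narrow band and the induced ones fanned out above it: the pairs differed by 2.21, 1.16 and 0.06. The means were -2.73 ± 0.07 and -1.59 ± 1.01 (SD, n = 3). Although the groups did not overlap, the difference of 1.15 (SE 0.49) rests on replicates 1 and 2. The technical repeats differed by 0.23.

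Psmb9, the inducible subunit LMP2, moved more evenly. It read -3.11, -3.50 and -3.57 without and -2.26, -2.59 and -2.87 with doxycycline (A_51_P369803), and the groups did not overlap. The pairs differed by 0.85, 0.90 and 0.70 and the technical repeats by 0.66. The means were -3.39 ± 0.25 and -2.57 ± 0.31 (SD, n = 3), 1.76-fold apart, a difference of 0.82 (SE 0.24). In limma's fit over all genes the SE was 0.217, or 0.119 when replicate number was a block. With the normexp background correction the difference of this dim probe shrank to 0.24.

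**Figure D2:**
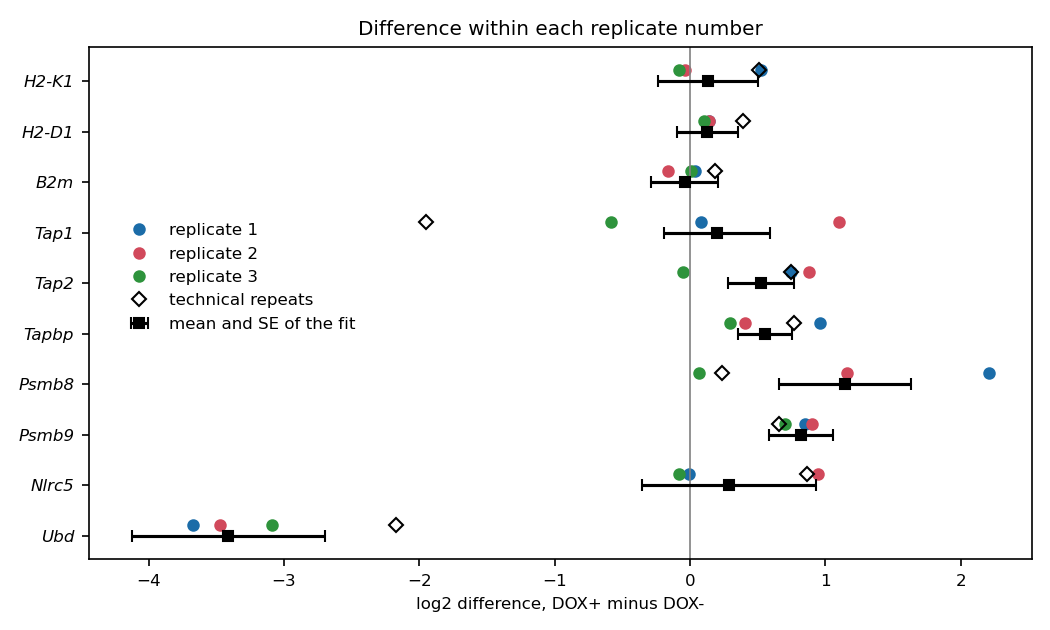
Log2 difference, DOX+ minus DOX-, within replicates 1, 2 and 3 (circles) and between the technical repeats (open diamonds); black squares with bars are the fitted difference and its standard error (n = 3 per group). The 3 pairs of Ubd lie between -3.67 and -3.09 and those of Psmb9 between 0.70 and 0.90, whereas those of Tap1 run from -0.58 to 1.10 and those of Psmb8 from 0.06 to 2.21.

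Nlrc5, the activator of class I promoters, was dim. Its probe A_55_P2016034 read -3.44, -5.68 and -4.71 in uninduced and -3.45, -4.74 and -4.79 in induced replicates, and cleared the background flag on 1 uninduced array of 3 and on all 3 induced ones. The difference was 0.29 (SE 0.64). The other probe, A_66_P113043, was well above background on all 6 and differed by 0.07 (SE 0.29). Neither probe separated the groups, and a change smaller than these errors would not be seen.

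Ubd itself (A_52_P338066) read -2.26, -1.88 and -0.51 in uninduced replicates 1, 2 and 3 and -5.93, -5.35 and -3.60 in induced ones. As processed signals these were 146, 103 and 237 without and 16.0, 14.6 and 44.7 with doxycycline, all well above background by the scanner software's flag. The groups did not overlap, and replicate 3 was the highest of its group on both sides. The means were -1.55 ± 0.92 and -4.96 ± 1.21 (SD, n = 3), a difference of -3.41 (SE 0.71). Replicates varied widely in level but little in the size of the fall: the pairs differed by -3.67, -3.47 and -3.09. In limma's fit over all genes the SE was 0.691, or 0.155 when replicate number was a block. The technical repeats read -0.41 and -2.59, a difference of -2.17.

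The induced signals of Ubd lay near the dim end of each array, where the background correction matters. With normexp, which adds an offset of 50 to each signal, the difference was -1.87. Leaving out 1 array at a time kept it between -4.09 and -2.89.

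By an adjusted p under 0.05 in limma's fit over all genes, 1 of the 10 genes, Ubd, was called lower, where 2.16% of all genes were, and 0 were called higher, where 4.14% were. With the replicate number as a block, Psmb9 was also called higher, where 9.37% of all genes were, and Ubd lower, where 6.8% were. The values of the groups did not overlap for 4 of the 10 (Tapbp, Psmb8, Psmb9 and Ubd), against 28.3% of all genes. With 1 array left out, Ubd stayed on that side of the threshold only without induced replicate 3. Since the genes were chosen with this comparison known, nothing is read from these counts.

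Scaling to spike-ins or to the array median moved all differences by the same amount. Quantile normalization moved them unequally, Tapbp from 0.55 to 0.48 and Psmb8 from 1.15 to 1.28. Relative to spike-in probes, which are RNAs added in known amount, the median of all genes was 1.38 in place of 0.09, and it was 0.25 with each array centred on its median and 0.06 after quantile normalization. Under spike-in scaling Ubd differed by -2.12 and was the only one of the 10 genes below 0. B2m then differed by 1.25, H2-K1 by 1.43 and H2-D1 by 1.42, all close to the median of all genes, and Psmb8 by 2.44 and Psmb9 by 2.11, above it. Which scale holds in these cells was not tested, so the differences here are relative to the bulk of genes on the array.

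**Figure D3:**
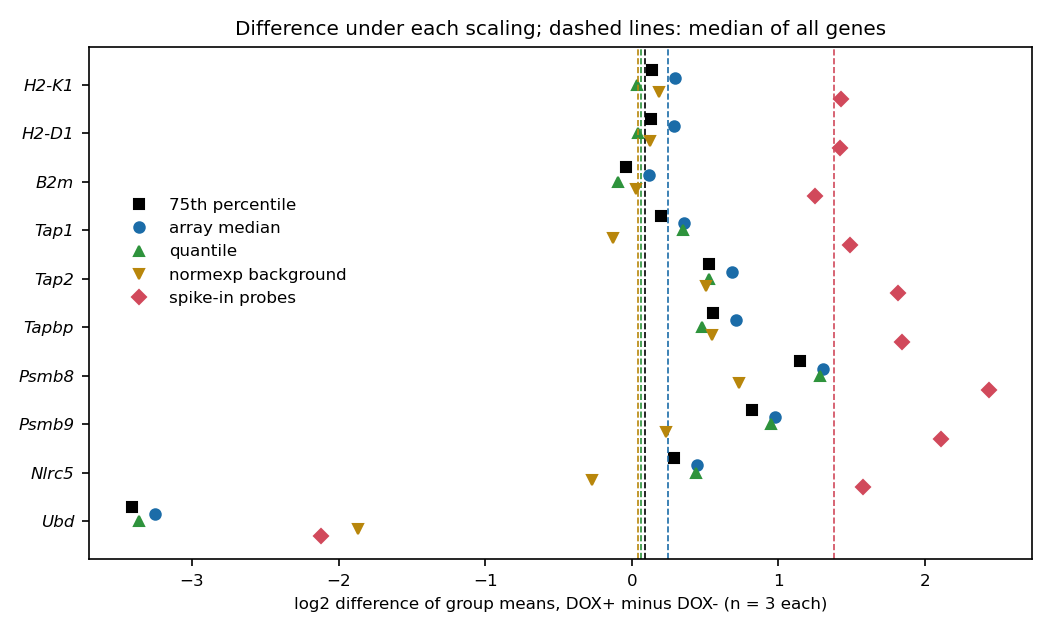
Log2 difference of the group means (n = 3 each) for the 10 genes under 5 treatments of the signals: 75th percentile, array median, quantile, normexp background correction and spike-in probes. Dashed lines give the median of all genes under the same treatment. Ubd stays left of every line, at -3.41 by the 75th percentile and -2.12 by spike-ins, while spike-in scaling carries the other 9 genes to between 1.25 and 2.44.

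The rest of the class I pathway was followed through lists of genes. Among the class I heavy chains other than H2-K1 and H2-D1, which include nonclassical chains, 0 of 9 tested passed the adjusted p of 0.05 in limma's fit. Their median difference was 0.07. With the replicate block 1 of the 9 was called higher. The count was also 1 after quantile normalization, with median centring, with spike-in scaling and with the technical repeats as a further sample. H2-Q4, whose probe gave the highest signal of the list, a rank of probes and not of transcripts, differed by -0.20 (SE 0.23, adjusted p = 0.635). H2-M3, which presents formylated peptides, had the largest difference of the 9, at 1.11 (SE 0.27). It was picked after its value was seen, so it gets no p here. In peptide loading and trimming, which holds the chaperones and aminopeptidases that fit peptides to the heavy chain, 0 of 13 passed and the median was 0.19. Canx, the chaperone calnexin, was named by the same rule and had a difference of 0.08 (SE 0.19, adjusted p = 0.818).

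Of the 4 inducible proteasome genes besides Psmb8 and Psmb9, 1 rose. It was Psmb10, the third inducible catalytic subunit, with 4.65, 4.87 and 4.87 in uninduced and 5.73, 5.53 and 5.36 in induced replicates. Every induced value was above every uninduced one. The difference was 0.75 (SE 0.16, limma, adjusted p = 0.0450), and it failed the threshold with any 1 of the 6 arrays left out (adjusted p from 0.0761 to 0.147). The adjusted p was 0.102 with no filter on dim probes, 0.0610 after quantile normalization, 0.120 with spike-in scaling and 0.0584 with the array row as a block. The constitutive subunits that these 3 replace differed less, by 0.15 for Psmb5 (SE 0.18, adjusted p = 0.652), 0.14 for Psmb6 (SE 0.14, adjusted p = 0.581) and 0.10 for Psmb7 (SE 0.16, adjusted p = 0.746). Over the constitutive proteasome 0 of 32 genes passed, with a median of 0.19. Whether the inducible and constitutive subunits differ in their response was not tested.

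FAT10 is attached to its targets by its own enzymes. Uba6, the activating enzyme, differed by 0.27 (SE 0.35, limma, adjusted p = 0.676) and Ube2z, the conjugating enzyme, by 0.01 (SE 0.16, adjusted p = 0.967). None of the 6 tested genes of FAT10 conjugation and binding passed, and their median was 0.00. Among ubiquitin and other ubiquitin-like modifiers 0 of 13 passed, with a median of -0.03. Fau, again the one with the highest probe signal, differed by -0.16 (SE 0.20, adjusted p = 0.660).

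Of the genes of interferon signalling and of the factors that bind class I promoters, 2 of 23 rose, 0 fell and the median was 0.16. Irf1, an interferon-regulated activator of class I and inducible proteasome genes, went from 1.81 ± 0.05 to 3.11 ± 0.16 (SD, n = 3), a difference of 1.30 (SE 0.15, limma, adjusted p = 0.0052). Socs1, a feedback inhibitor of cytokine signalling, went from 0.06 ± 0.19 to 1.92 ± 0.16, a difference of 1.87 (SE 0.17, adjusted p = 0.0030). Both were higher in all 3 pairs and passed with any 1 array left out. With the replicate block the count that rose was 3.

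Tumor necrosis factor and NF-kB signalling had 0 of 15 genes higher and 2 lower, with a median of 0.01. Relb, an NF-kB subunit, went from 2.46 ± 0.12 to 1.56 ± 0.19 (SD, n = 3), a difference of -0.91 (SE 0.16, limma, adjusted p = 0.0243). Birc3, an inhibitor of apoptosis and an NF-kB target, went from -1.10 ± 0.05 to -2.09 ± 0.39, a difference of -0.99 (SE 0.22, adjusted p = 0.0477). Both were lower in all 3 pairs, and under spike-in scaling they turned to 0.38 and 0.30. Neither passed with arrays centred on their median (adjusted p = 0.0614 for Relb and 0.0630 for Birc3) or with no filter (0.0604 and 0.0996), and Relb not with the technical repeats as a further sample (0.0603). Relb lost its call without replicate 2 or 3 of either group (adjusted p of up to 0.103), and Birc3 kept its call only without induced replicate 2 (up to 0.150 in the other fits).

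MHC class II molecules present peptides taken up from outside the cell, and 5 of their 12 listed genes were bright enough to test. Of these 2 rose, and the median was 0.92, or -0.042 with normexp. Cd74, the invariant chain, read -4.61, -5.31 and -5.12 without and -0.62, -2.01 and -2.55 with doxycycline, a difference of 3.28 (SE 0.49, limma, adjusted p = 0.0136). The flag was cleared on 2 uninduced arrays of 3, and with normexp the difference was 1.44 (adjusted p = 0.0804). Without uninduced replicate 2 the adjusted p was 0.0602. H2-DMb1, part of the class II peptide exchange factor, cleared the flag on 0 uninduced arrays (limma, adjusted p = 0.0314). Its induced mean was 1.65-fold above the dimmest signals well above background on the uninduced arrays, which is no lower bound on its change. With normexp it differed by -0.042 (adjusted p = 0.918). H2-DMb1 also lost its call without uninduced replicate 3 or any 1 of the induced replicates. Cd74 and H2-DMb1 passed the filter on dim probes through the induced arrays alone, so their calls depend on that filter. With only genes well above background on all 6 arrays, 0 of 3 rose and the median was -0.16. The median of the 5 is therefore no measure of the 12.

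**Figure D4:**
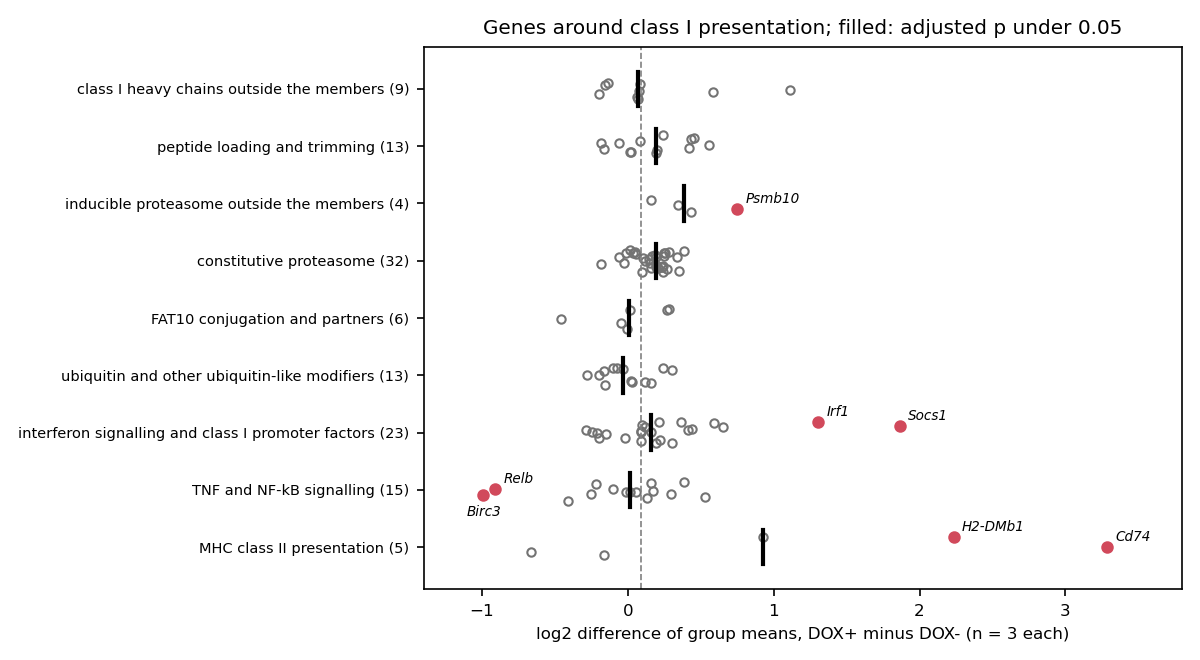
Log2 difference of the group means (n = 3 each) for each tested gene of 9 lists around class I presentation, with the number tested in brackets. Filled points have an adjusted p under 0.05 in limma's fit over all genes, short black bars are list medians, and the dashed line is the median of all genes at 0.09. The filled points are Psmb10, Irf1, Socs1, Cd74 and H2-DMb1 to the right of 0 and Relb and Birc3 to the left, and the open points of H2-M3 at 1.11 and H2-Ab1 at 0.92 lie further right than that of Psmb10 at 0.75.

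By gene order in RefSeq's GRCm38.p6 table, 8 of the 10 genes lie on chromosome 17 between Tapbp and Ubd, in a stretch of 266 genes, and B2m and Nlrc5 lie elsewhere. Of the 113 other genes tested there, 3 were higher (2.65%) and 2 lower (1.77%), with a median of 0.05. The called genes were Gpsm3, Hspa1a, H2-DMb1, Sapcd1 and C2, and with the replicate block 6 were higher and 9 lower. Psmb9, Tap1, Psmb8 and Tap2 stand next to each other between class II genes, with H2-DMb1 on the side of Psmb9 and H2-Ob and H2-Ab1 on the side of Tap2. H2-Ab1 differed by 0.92 (SE 0.28, limma, adjusted p = 0.121) and H2-Ob by -0.66 (SE 0.29, adjusted p = 0.246). Ubd lies among olfactory receptor genes, of which Olfr94 differed by -1.04 (SE 0.50, adjusted p = 0.288).

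The genes whose pattern over the 6 arrays was most like that of Ubd, among 13475 genes well above background on all 6, were Abca3 (Pearson r = 0.998), Cubn (0.995), Bik (0.995), Zfp821 (0.994) and Sox17 (0.993). Each r is a description over 6 arrays of 2 groups that share their scaling, and both the difference between groups and the order of the replicates within them enter it. Bik, a promoter of apoptosis, differed by -3.30 and Sox17, an endothelial transcription factor, by -3.54, sizes near that of Ubd, whereas Abca3 differed by -0.53. For B2m, Itga7 (0.986), Cda (0.984) and Gsto1 (0.983) were among the most alike, and the differences of these 3 lay between -0.082 and 0.028.

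Markers of the cells in culture moved in the same libraries. All 12 endothelial markers were measured, and 3 fell (Tek, Sox17 and Eng), 0 rose and the median was -1.05, or 0.24 under spike-in scaling. With the replicate block 7 fell, but 1 fell with median centring or with no filter, 0 with spike-in scaling, and 0 to 2 with 1 array left out. Their summed signal, in units of the array's 75th percentile, lay between 175 and 429 in uninduced and between 83.5 and 210 in induced replicates. Such sums weigh the brightest probes of a list most, so they do not measure the list as a whole. The brightest endothelial probe was that of Egfl7, which differed by -1.80. Of 10 blood progenitor markers 5 rose (Spn, Myb, Gfi1, Was and Coro1a), 0 fell, and with only markers well above background on all 6 arrays 4 of 8 rose, since Myb and Spi1 entered through the induced arrays. The 5 that did not pass differed by -0.19 (Ptprc), 0.57 (Kit), 0.63 (Itga2b), 0.88 (Laptm5) and 2.80 (Spi1). The median of the 10 blood progenitor markers was 2.33, or 1.26 with normexp. Their summed signal went from between 4.02 and 8.00 to between 18.5 and 37.2. In such bulk samples fewer cells of a type and less RNA per cell cannot be told apart, and the part of these shifts in the fall of Ubd and the rises above was not tested.

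Other cell types that express class I and class II genes strongly were checked by their markers. Of the macrophage markers 8 were tested, 1 rose (Fcgr3, though not with normexp) and 1 fell (Csf1r), or 2 and 3 with the replicate block. Fcgr3 and Lyz2, the 2 higher with the block, entered through the induced arrays. With only markers well above background on all 6 arrays, and without the block, 0 rose. The summed signal lay between 50.5 and 58.6 in uninduced and between 32.2 and 51.6 in induced replicates. Itgam, the brightest probe in that sum, differed by -0.35. Fcgr1 and C1qa were well above background on 0 of the 6 arrays. Among 6 tested dendritic markers 1 rose (Ccr7), or 2 with 2 lower under the replicate block. Of those called with the block, Itgax (higher) entered through the induced arrays and Clec9a (lower) through the uninduced ones. Flt3 and Xcr1 were well above background on 0 arrays. Of 6 tested lymphocyte and natural killer markers 0 passed, and Cd3g, Ncr1 and Klrb1c were likewise well above background on 0 arrays. Mesenchymal markers had 1 of 8 lower (Thy1, though not with normexp), or 3 with the replicate block beside 1 higher. Thy1 entered through the uninduced arrays, and with only markers well above background on all 6 arrays 0 of 7 fell. The mesenchymal sums lay between 755 and 880 in uninduced and between 561 and 661 in induced replicates. Acta2 and Tagln, the brightest probes in those sums, differed by -0.65 and -0.33, and the list median was -0.40. The pluripotency genes Pou5f1 and Sox2 also cleared the flag on 0 arrays, and 0 of the 2 others passed.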

How the data were processed

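Total RNA was read on 8 Agilent 1-colour arrays of 1 slide. The authors deposited scanner output, per the file headers from Feature Extraction 10.7.3.1 (10.7.1.1 in the submitters' processing notes), whose processed signal is a background-corrected intensity. Per the values, the authors' deposited table is on a log2 scale. From the intensities, spots flagged as outliers were dropped, log2 processed signal was set against each array's 75th percentile, spots of a probe were averaged, and probes well above background on all 3 arrays of a group were kept (32855 of 55681). Of all probes 26582 carry 1 gene symbol and 29099 none, and the brightest kept probe stands for a gene. limma 3.58.1 in R 4.3.3 fitted 14518 genes with 3 arrays per group, with Benjamini-Hochberg adjustment over all of them. The number of arrays limits the precision.

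Same-numbered samples deviated together (r = 0.65, 0.45 and 0.43 for replicates 1, 2 and 3, over 14518 genes), so the numbers pair the samples, a pairing that comes from the titles' replicate numbers. The files hold the median signal but no mean signal, so normexp (offset 50) used the median signal and its local background. Spike-in scaling used 4 control probes that vary with the array. In the deposited log2 table only 2 of 8 columns track the array they are named for, so it serves as an alternative only; whether the table or the scanner files carry the wrong names is not known. Its scale fits log2, and its centring is unknown.

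Genes named are all 10 members, list genes past the threshold, the gene with the highest probe signal in a list with none, and Psmb5, Psmb6, Psmb7, Psmb10, Irf1, Uba6 and Ube2z, and some genes that this rule names are not reported here. The motifs, H2-M3 and the marker genes named were picked after values were seen. The members and lists were chosen with earlier results of these data known. The fitting was checked on simulated data.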

Additional observations from a re-analysis of the deposited data

How the results depend on the processing

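With 915 genes past the adjusted p of 0.05, the count was 534 with no filter on dim probes, 2347 with the replicate block (where the numbers pair the samples), 1584 with the technical repeats as a further sample, 0 in the authors' table with its columns as named (limma, 223 at an unadjusted p under 0.05), and 379 to 824 with 1 array left out. Of the 10 genes, the count called lower was 0, in place of 1, with no filter, after quantile normalization, with spike-in scaling and in the authors' table as named, and 0 to 1 with 1 array left out. The count called higher, 0 at first, was 1 with spike-in scaling, 1 with the replicate block, 2 with the technical repeats, and 0 with any 1 array left out. With the replicate block 9.37% of all genes were called higher. The shares of all genes by direction in the other fits are not given here, so nothing is read from these counts. Ubd differed by -1.87 with normexp, by -2.12 with spike-in scaling, and by -4.09 to -2.89 with 1 array left out. In the authors' table as named Ubd was at 0.20, Relb at 0.034, Birc3 at 0.017, Cd74 at -0.33 and H2-DMb1 at -0.15. Most of its columns track another array than the one they are named for, and by the array each tracks 930 genes passed and Ubd differed by -2.65. Other reversals were H2-DMb1 at -0.042 with normexp, and Relb at 0.38 and Birc3 at 0.30 with spike-in scaling; their cause was not tested. Without the authors' table as named, Tapbp, Psmb8 and Psmb9 were positive and Ubd negative under every alternative run, whereas H2-K1, H2-D1, B2m, Tap1, Tap2 and Nlrc5 took both signs. The array row as a block changed no call of the 10 genes. Dim probes such as those of Nlrc5 and Tap1 limit what can be seen.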
